A study of Mus musculus with 2 samples.

Results

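The genes described here are 94 developmental transcription factor genes and related transcripts of the mouse, out of 12393 genes that had a probe set of their own in the array table. They were chosen by name, from the Hox clusters and the Pax, Lhx, Nkx, Gata, Dlx, Six-type, Msx, Irx, Neurod and Neurog families, and were measured by 128 probe sets. The naming rule uses no measured value, although it was drawn up with earlier results of these data known. The names also took in 3 non-coding transcripts, Dlx1as, Dlx6os2 and Hoxa11os, which lie antisense or opposite to a family gene. The samples were mouse induced pluripotent stem cells (iPSCs), which are made by reprogramming somatic cells to pluripotency. Both were kept in 2i/serum medium for mouse embryonic stem cells, where 2i stands for inhibitors of the MEK and GSK3 kinases that favour naive pluripotency. RNA of 1 hybridized sample and 1 live sample was amplified and measured on 1 array each. What the hybridization consisted of is not stated in the labels. The comparison addresses how closely the profile of hybridized cells matches that of live cells. The labels name no line, clone, strain or reprogramming method. With 1 array per group no value has a replicate error and no difference can be tested, so precision is limited by the number of arrays.

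Most of these genes encode homeodomain proteins, which bind DNA through a conserved fold and give cells of the embryo their position or lineage. The Gata genes encode zinc finger factors, and the Neurod and Neurog genes encode basic helix-loop-helix factors of the nervous system and the endocrine pancreas. In pluripotent cells many of these loci are known to be held off by the Polycomb complexes, which mark the CpG-rich promoters of developmental genes, and to be switched on only as cells take up a lineage.

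As named, the group was low on both arrays. The mean log2 value of the 2 arrays, at the probe set with the highest mean for each gene, was under 5 for 89 of the 94 genes, or 94.7%. Over all 12393 genes the same share was 41.4%. Taken array by array, 90 of the 94 were under 5 in hybridized cells and 88 in live cells. This limit was set by choice, with no detection call behind it. A reading also depends on the probes, so readings of different genes are set against the limit and not ranked as amounts of RNA. In a bulk sample, fewer cells that express a gene and less RNA per cell cannot be told apart.

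The same cells carried the markers of pluripotency. All 8 of the markers of pluripotent cells that were listed (Nanog, Sox2, Zfp42, Klf4, Esrrb, Pou5f1, Dppa5a and Tdgf1) were far above the limit, with readings from 10.83 to 13.17 in hybridized cells and from 11.53 to 13.14 in live cells. Of the markers of primitive endoderm 0 of 5 reached the level, of mesoderm 0 of 4, of fibroblasts 1 of 5, of neural progenitors 1 of 4 and of trophectoderm 4 of 6. The fibroblast marker at the level was Col1a1, with 4.46 in hybridized cells and 6.17 in live cells, though its second probe set differed by 0.40 the other way. Col1a2, Thy1, Postn and Twist1 were under the level, and Twist1 differed by -1.22. The single neural marker at the level was Olig2, with 5.71 and 6.73. Of the trophectoderm markers, Eomes, Krt8, Krt18 and Tfap2c had means of 7.15, 9.14, 7.66 and 12.58, and Cdx2 and Elf5 had means of 3.14 and 2.30. Krt8 read lower in hybridized cells, with a difference of -1.48, and Krt18 and Tfap2c differed by 0.71 and 0.69. The part of rare other cells in any reading below was not tested.

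**Figure D1:**
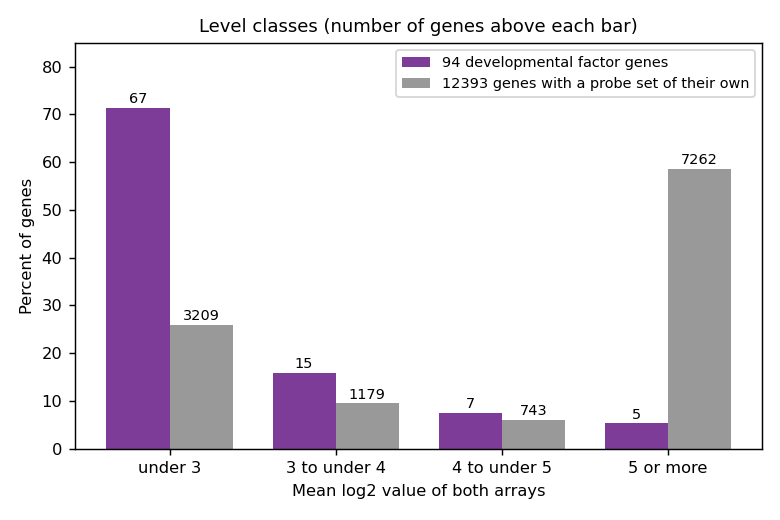
Share of genes (percent, vertical axis) in 4 classes of the mean log2 value of both arrays (horizontal axis), for the 94 developmental factor genes and for all 12393 genes. The number of genes stands above each bar. Of the developmental genes 67 had a mean under 3 and 5 a mean of 5 or more, against 3209 and 7262 of all genes.

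The low readings were close to the floor of the arrays. Of the 94 genes, 67 had a mean under 3, 15 a mean from 3 to under 4 and 7 a mean from 4 to under 5. Both arrays also hold 27 control probe sets for bacterial transcripts that mouse RNA lacks (dap, lys, phe, thr and trpn), whose readings ran from 1.66 to 2.78. For 49 of the 94 genes, or 52.1%, both readings lay at or under the highest of these control readings, compared with 20.6% of all genes. For 36 of the 94 genes both readings were above it, and these include the 5 genes at the level. The rest of the 36 were under the limit, so the arrays do not show that each gene under it was off. The labels do not say whether bacterial transcripts were added to the RNA.

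Below the limit, the median gap between hybridized and live readings was near that of all genes with low readings, and its spread was narrower. The difference between the arrays, hybridized minus live on the log2 scale, had a median of -0.13 over the 89 genes. Its SD over these genes was 0.29. Over the 5131 genes of the whole table under the limit, the median was -0.10 and the SD 0.41. The difference was within 0.5 in either direction for 80 of the 89 genes, or 89.9%, and for 83.6% of the 5131. Of the 89 genes, 63 (70.8%) read lower in hybridized cells, against 65.0% of all genes under the limit. The bacterial controls moved the same way, with 18 of 27 lower and a median difference of -0.12. Among the 89, Six5 (-1.41) and Gata1 (-1.0) were apart by 1 or more, against 239 of the 5131 genes under the limit. Gata1, the erythroid member of its family, read 3.08 in hybridized cells and 4.08 in live cells.

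**Figure D2:**
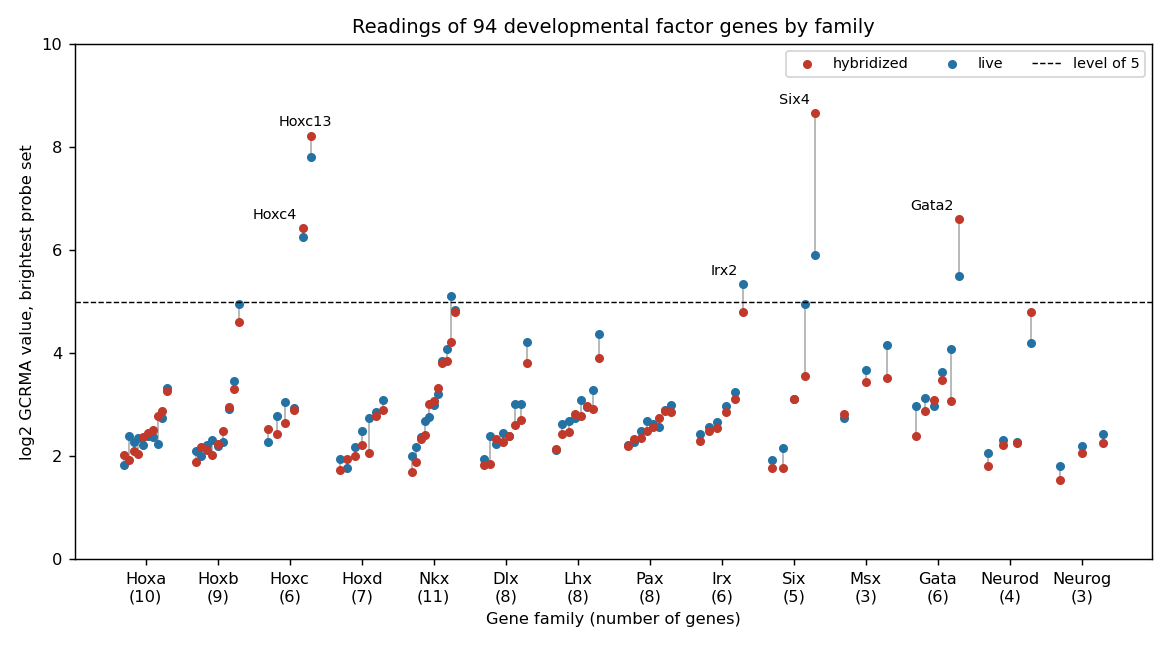
Log2 GCRMA value (vertical axis) of the brightest probe set of each of the 94 genes, grouped by family (horizontal axis, with the number of genes), in hybridized cells (red) and the live sample (blue), joined by a line for each gene. The dashed line is the level of 5. Only Hoxc13, Hoxc4, Six4, Gata2 and Irx2 had a mean above it, and Six4 had the widest gap between the arrays.

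The Hox genes, which set position along the body axis, were the largest group. RefSeq lists 39 protein-coding Hox genes in 4 clusters, and 31 of them had a probe set of their own. With Hoxa11os, 30 of 32 Hox transcripts were under the limit. All 10 of the Hoxa transcripts were under it, with readings from 1.83 to 3.33, and Hoxa7 had the highest mean at 3.26 in hybridized cells and 3.33 in live cells. All 9 of the Hoxb genes were under it, and 8 of them had a mean of 3.38 or less. The exception in range was Hoxb9, a gene of the thoracic region, at 4.60 in hybridized cells and 4.96 in live cells. The 7 Hoxd genes read from 1.73 to 3.09 on both arrays, and Hoxd9 had the highest mean with 2.90 and 3.09. Probe sets shared by Hoxd3 and Hoxd4 had means of 2.18 and 2.83, and a probe set shared by Hoxb7 and Hoxb8 a mean of 1.95. These 3 name more than 1 gene and are not among the 128.

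The Hoxc cluster held both Hox genes above the limit, and they lie at its opposite ends. Hoxc13 (Entrez 15422), a regulator of keratins in hair and nail, read 8.22 in hybridized cells and 7.80 in live cells on its only probe set. Both arrays were well above 5, and the difference of 0.42 is a 1.34-fold higher reading in hybridized cells. Hoxc4 (Entrez 15423), a gene of the anterior part of the cluster, read 6.43 and 6.26, also on 1 probe set, a difference of 0.17. Both arrays therefore placed these genes on the same side of the limit and less than 2-fold apart. Between them in RefSeq order, Hoxc9, Hoxc8, Hoxc6 and Hoxc5 were all under the limit with readings from 2.28 to 3.05. Hoxc5, the neighbour of Hoxc4, read 2.44 and 2.78. The neighbours of Hoxc13, Hoxc12 inside the cluster and Calcoco1 outside it, had no probe set of their own, nor had Hoxc10 and Hoxc11. The other members of paralog groups 4 and 13 did not share the high readings: Hoxa4 and Hoxb4 had means of 2.42 and 2.94, and Hoxa13, Hoxb13 and Hoxd13 had means of 2.44, 3.38 and 2.35.

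**Figure D3:**
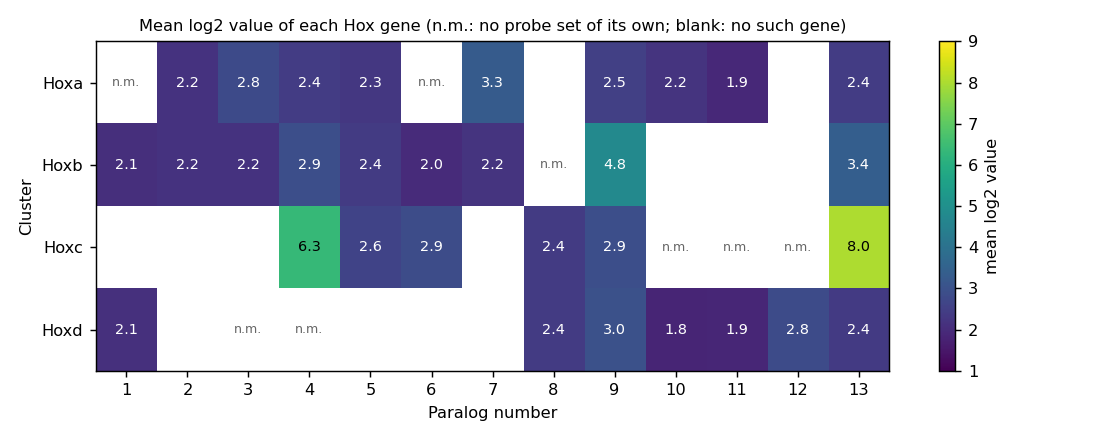
Mean log2 value of the 2 arrays for each Hox gene, by cluster (rows) and paralog number (columns), with the colour scale from 1 to 9 and the value in each cell. Cells marked n.m. are genes without a probe set of their own, and blank cells have no gene. Hoxc13 (8.0) and Hoxc4 (6.3) stand out from a grid whose other values are at most 4.8.

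Six-family genes encode homeodomain factors of muscle, kidney, eye and sensory organs. Six4 (Entrez 20474), a factor of muscle and sensory ganglia, had the widest difference of the whole group. It read 8.66 in hybridized cells and 5.90 in live cells, a difference of 2.76 or 6.77-fold. The second probe set of Six4 did not show this, with 3.26 in hybridized cells and 3.42 in live cells. Averaged over both probe sets, Six4 was 1.30 higher in hybridized cells, an average that includes the probe set under the limit. The 5' minus 3' signal of the Actb controls was -0.50 in hybridized cells and -3.02 in live cells, and that of Gapdh was -0.12 and -1.93. For the Tfrc controls it was -3.23 and -3.73, a gap of only 0.5. The part of this 5' to 3' balance in the reading of Six4, or of any other gene here, was not tested. Both probe sets carry the suffix _a_at, which marks probes shared by transcripts of the same gene. Mnat1, a RefSeq neighbour of Six4 that encodes a subunit of the CDK-activating kinase, read 10.07 in hybridized cells and 9.33 in live cells.

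The remaining 4 Six-family genes were under the limit. Six2, Six3 and Six6, factors of the kidney, forebrain and eye, had means of 1.96, 3.12 and 1.85. Six5, which lies beside the myotonic dystrophy kinase gene Dmpk, read 3.55 in hybridized cells and 4.96 in live cells, so the live reading was just short of 5. Dmpk itself read 3.57 in hybridized cells and 6.01 in live cells on the brighter of its 2 probe sets. Its mean of 4.79 was under the limit. Both genes of the pair were thus lower in hybridized cells by more than 1, with Dmpk at a difference of -2.44, and whether their 2 signals are separate was not tested. Dmpk was picked for its position after the value of Six5 was seen. Neighbours of other named members went both ways. Rpn1 differed by -1.06 beside Gata2 at 1.10, and Mnat1 by 0.74 beside Six4 at 2.76.

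Among the zinc finger factors, Gata2 (Entrez 14461), a factor of blood stem cells and of the placenta, was the only 1 of 6 Gata genes at the level. It read 6.60 in hybridized cells and 5.50 in live cells, a difference of 1.10 or 2.14-fold. Its second probe set read 5.06 and 4.47, a difference of 0.59 in the same direction with a mean of 4.76, under the limit. The average over both was 0.84 higher. The other 5 Gata genes read from 2.40 to 4.08. Picked as examples with their values known, Gata6 and Gata4, which drive primitive endoderm, read 3.09 and 2.88 in hybridized cells and 2.97 and 3.13 in live cells, and Gata3, a trophectoderm factor, read 3.47 and 3.63. Of 4 partners of Gata factors on the list, only Ldb1, an adaptor of Gata and LIM complexes, was at the level with 7.16 in hybridized cells and 7.58 in live cells. Zfpm1, Zfpm2 and Lmo2 were under it, with means from 2.23 to 3.67.

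The Iroquois genes, homeobox genes of neural and heart patterning, gave the last exception. Irx2 (Entrez 16372) read 4.79 in hybridized cells and 5.34 in live cells, a difference of -0.55, so the limit passed between its 2 readings. The other 5 Irx genes read from 2.29 to 3.25. Its RefSeq neighbours in the same gene cluster, Irx1 and Irx4, had means of 2.52 and 2.60.

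No member of the remaining families reached the level. The 11 Nkx genes, factors of ventral neural tube, heart, lung, thyroid and gut, had means from 1.85 to 4.81. Nkx6-2, which acts in the ventral neural tube, read 4.79 in hybridized cells and 4.83 in live cells, the closest of the group to the limit from below. Nkx1-2, a gene of the posterior epiblast, read 4.21 and 5.10, so that its live reading was over 5 while its mean of 4.66 was not. The other 2 probe sets of Nkx1-2 had means of 2.73 and 2.17. The 8 Dlx transcripts, from a family of forebrain, jaw and limb factors, had means from 1.89 to 4.01. Dlx3, a factor of placenta, hair and teeth, was the highest of these with 3.80 in hybridized cells and 4.22 in live cells, and its second probe set had a mean of 2.43. The 3 Msx genes, of limb and skull, had means from 2.78 to 3.84, and Msx2 read 3.52 and 4.15.

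The LIM homeobox, paired and neurogenic families were as low. The 8 Lhx genes, which specify neuron classes and parts of the head, had means from 2.14 to 4.15. Lhx6, a factor of cortical interneurons, read 3.91 in hybridized cells and 4.38 in live cells, and its other probe set had a mean of 2.24. The 8 Pax genes, named for the paired domain, had no reading above 3.0, and Pax9 had the highest mean with 2.86 and 3.0. For Pax6, the eye and forebrain factor, all 5 of its probe sets were low, with means from 1.97 to 2.88. The 4 Neurod genes had means from 1.94 to 4.50. Neurod1, a factor of neurons and pancreatic beta cells, read 4.8 in hybridized cells and 4.19 in live cells, with a mean of 2.76 on its second probe set. The 3 Neurog genes had no reading above 2.44, and Neurog3, of endocrine pancreas progenitors, had the highest mean at 2.35.

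The 5 genes above the limit and the 7 with a mean from 4 to under 5 differ in how far they stand from it. Irx2 was the nearest above with a mean of 5.07, and Gata2, Hoxc4, Six4 and Hoxc13 had means of 6.05, 6.34, 7.28 and 8.01. Below it, Nkx6-2, Hoxb9, Nkx1-2 and Neurod1 had means of 4.81, 4.78, 4.66 and 4.50, and Six5, Lhx6 and Dlx3 had means of 4.25, 4.14 and 4.01. With a limit of 4 these 7 would count as measured and 82 of the 94 would be under it. With a limit of 6, Irx2 would leave and 90 would be under it.

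Of the 94 genes, 27 had more than 1 probe set, and for 25 of these all probe sets were under the limit. Six4 and Gata2, both above, were the remaining 2, and each had its other probe set under it. The gap in mean between the brightest and dimmest probe set of a gene had a median of 0.65 and ran from 0.04 for Neurog3 to 3.94 for Six4. Taking the brightest probe set therefore raises the level of these genes, and 123 of the 128 probe sets were under 5. Hoxc13, Hoxc4 and Irx2 had no second probe set, so none of the 5 genes above the limit had a mean above it on 2 probe sets.

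**Figure D4:**
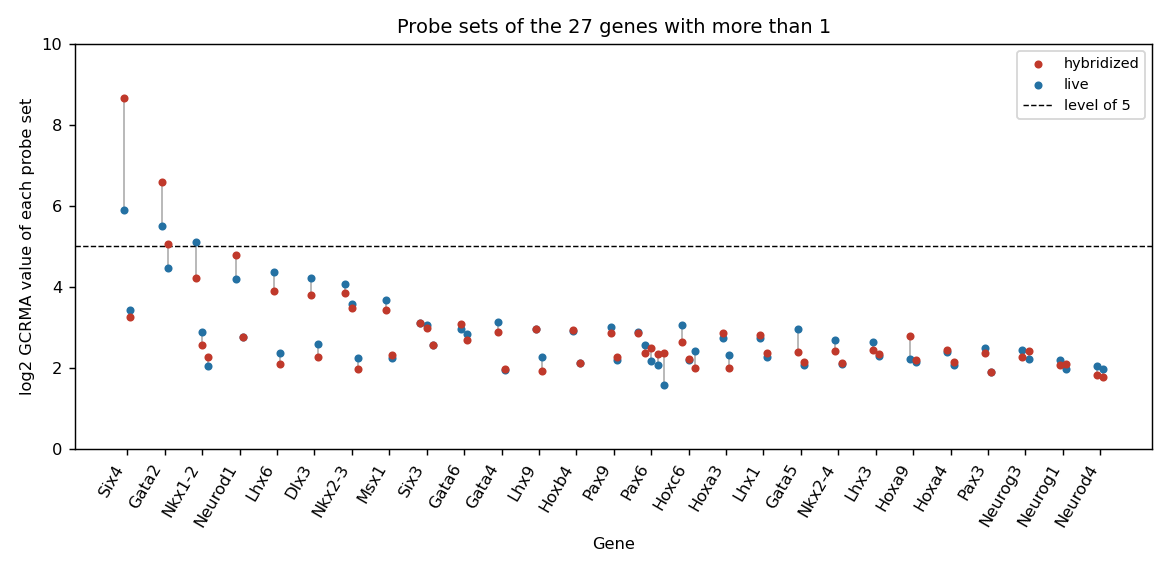
Log2 GCRMA value (vertical axis) of every probe set of the 27 genes with more than 1 (horizontal axis, ordered by brightest mean), in hybridized cells (red) and the live sample (blue), each pair joined by a line. The dashed line is the level of 5. Six4 has 1 probe set at 8.66 and 5.90 and another at 3.26 and 3.42, and from Lhx6 on every probe set is under 5 on both arrays.

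Between the arrays, 2 of the 5 genes at the level, Six4 and Gata2, read higher in hybridized cells by 2-fold or more and 0 read lower by as much. Over all 7262 genes at the level, 8.43% were 2-fold higher and 15.4% 2-fold lower, 23.8% in either direction. The median difference was 0.42 over the 5 genes and -0.17 over the 7262, and 5 genes are too few to set against the whole. The split over all genes rests on the centring, with 612 higher and 1115 lower as deposited, 814 and 833 when centred on the median gene, and 2310 and 206 when centred on the hybridization controls. That last step raises each difference by 0.80. With it Hoxc13 joined Six4 and Gata2 as 2-fold higher, at 1.22, and Irx2 turned to 0.25. With suffixed probe sets (_x_at, _s_at and _a_at) left out, 0 of the 3 genes still at the level were 2-fold apart, since the brighter probe sets of Six4 and Gata2 both have such a suffix.

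Promoter sequences are shown for 3 of the genes above the limit, each beside the member of its family with the lowest mean that had a window, so that the DNA upstream of high and low readings can be read side by side. They are the 250 bases before the annotated start, 5′ to 3′ on the gene's strand, from RefSeq on GRCm38.p6, the first window listed for the gene, with each CG dinucleotide in capitals. The array files name no build, and the windows were matched by Entrez ID.
Six4, chr12:73113246-73113495, minus strand: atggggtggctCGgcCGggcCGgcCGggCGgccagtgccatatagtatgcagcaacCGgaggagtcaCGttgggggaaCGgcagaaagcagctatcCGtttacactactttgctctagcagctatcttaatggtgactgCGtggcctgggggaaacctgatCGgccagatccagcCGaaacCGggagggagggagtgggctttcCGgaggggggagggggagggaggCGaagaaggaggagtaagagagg
Six6, chr12:72939632-72939881, plus strand: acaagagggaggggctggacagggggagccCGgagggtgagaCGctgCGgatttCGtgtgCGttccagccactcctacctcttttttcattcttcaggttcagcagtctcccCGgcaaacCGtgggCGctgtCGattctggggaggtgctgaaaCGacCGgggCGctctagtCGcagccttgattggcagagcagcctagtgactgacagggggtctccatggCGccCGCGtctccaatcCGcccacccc
Hoxc4, chr15:103034145-103034394, plus strand: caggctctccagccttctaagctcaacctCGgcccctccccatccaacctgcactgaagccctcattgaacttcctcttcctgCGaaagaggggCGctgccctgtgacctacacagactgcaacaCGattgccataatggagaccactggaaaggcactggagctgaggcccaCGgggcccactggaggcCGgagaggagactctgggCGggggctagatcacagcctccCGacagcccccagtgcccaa
Hoxd10, chr2:74691641-74691890, plus strand: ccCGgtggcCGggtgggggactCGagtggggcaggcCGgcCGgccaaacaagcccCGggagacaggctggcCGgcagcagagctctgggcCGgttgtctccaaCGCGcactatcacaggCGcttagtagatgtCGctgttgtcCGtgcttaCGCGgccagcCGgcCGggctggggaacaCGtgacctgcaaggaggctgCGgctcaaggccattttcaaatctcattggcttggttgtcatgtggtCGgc
Gata2, chr6:88193641-88193890, plus strand: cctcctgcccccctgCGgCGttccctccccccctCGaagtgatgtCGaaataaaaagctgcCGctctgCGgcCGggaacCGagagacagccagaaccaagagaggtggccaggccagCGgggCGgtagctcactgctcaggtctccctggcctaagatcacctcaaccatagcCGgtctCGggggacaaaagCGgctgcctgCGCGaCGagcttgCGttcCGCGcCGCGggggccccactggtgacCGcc
Gata5, chr2:180334680-180334929, minus strand: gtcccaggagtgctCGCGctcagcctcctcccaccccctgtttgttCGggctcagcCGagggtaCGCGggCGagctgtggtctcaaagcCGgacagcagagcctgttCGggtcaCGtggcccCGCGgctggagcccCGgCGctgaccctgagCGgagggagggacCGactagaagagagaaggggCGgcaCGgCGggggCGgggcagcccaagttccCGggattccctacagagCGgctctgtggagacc

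CG dinucleotides, a motif that reads the same on both strands, were counted in these 3 pairs. The pairs were picked by their readings, and a relation between the counts and the readings was not tested. Six4 had 15 in its window and Six6 had 17, with GC contents of 62.0% and 62.8%. Hoxc4 had 8 and Hoxd10, with readings of 1.73 and 1.95, had 20. Gata2 and Gata5 had 22 each, and Gata5 read 2.40 in hybridized cells and 2.97 in live cells. By the usual limits of at least 50% GC and a ratio of observed to expected CG of at least 0.6, the windows of Six4, Six6, Hoxd10, Gata2 and Gata5 were CpG-rich and that of Hoxc4, with a ratio of 0.34, was not. Of all 32851 windows of the same length in the table, 31.0% met both limits. Some genes have more than 1 window in that set. The windows shown are the first listed for genes picked by their readings, so the sets are not alike. No comparison over the whole group is drawn, because only 67 of the 94 genes, or 71.3%, had a window. Of all genes 79.7% had a window. Among the genes above the limit that are not shown, Hoxc13 had no window. Irx2 had one, but its window was not shown and its CG dinucleotides were not counted.

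Genes that act on or with this group were measured from lists. Of 25 Polycomb subunits and cofactors with a probe set of their own, 23 were at the level and 2, Cbx8 and Phf19, were under it. The share under it was 8.0%, against 41.4% of all genes. The core of the complex that methylates histone H3 was bright on both arrays. Ezh2, its enzyme, read 11.58 in hybridized cells and 11.73 in live cells, its partner Eed 11.88 and 11.81, and Suz12 12.24 and 11.72. Kdm2b, which binds unmethylated CpG DNA, read 11.83 and 11.76, and the cofactors Jarid2 and Mtf2 had means of 11.96 and 12.22. Rbbp4, Rbbp7, Aebp2, Phc1, Cbx6, Pcgf2, Pcgf6, Yaf2 and Bmi1 were also under 2-fold apart on their brightest probe sets. Other probe sets at the level went against this for some, with 3.29 on 1 of Rbbp4, -1.57 and 2.80 on those of Pcgf6 and 1.73 on 1 of Suz12. Averaged over probe sets, Rbbp4 differed by 0.94, Pcgf6 by 0.38, Yaf2 by -0.42 and Eed by -0.115, each with the sign turned. The ubiquitin ligase Rnf2 was 1.30 higher in hybridized cells, with 0 on its second brightest probe set, and Pcgf1 was 1.19 higher. Phc2 (-2.26), Ezh1 (-1.5), Phf1 (-1.41), Cbx7 (-1.16), Ring1 (-1.15) and Cbx2 (-1.14) were at least 2-fold lower. The second probe sets of Phc2, Ezh1 and Cbx7 differed by -1.18, -0.02 and -0.93, and that of Cbx2, under the limit, by 0.21. Of all genes at the level, 8.43% were 2-fold higher and 15.4% 2-fold lower. The split among the 23 was 2 higher and 6 lower. It became 2 and 3 when centred on the median gene, and 5 and 1 when centred on the hybridization controls. The median difference of the 23 genes was -0.11, against -0.17 for all genes at the level.

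The TALE class of homeodomain proteins includes DNA-binding partners of Hox factors. At the level were 6 of 10 listed genes, namely Pbx2, Pbx3, Pbx4, Pknox1, Tgif1 and Tgif2. That share is near the 58.6% of all genes that were at the level. Pbx2 read 10.62 in hybridized cells and 10.82 in live cells, and Tgif1, a repressor of the class, 11.65 and 11.20. Meis1, Meis2, Meis3 and Pknox2 were under the limit with means from 2.77 to 4.47. Pknox1 read 7.85 in hybridized cells and 4.04 in live cells, a difference of 3.81, and its second probe set differed by 2.21 in the same direction. On the brightest probe sets Pknox1 was the only 1 of the 6 that was 2-fold apart as deposited, and 4 were 2-fold higher when centred on the hybridization controls. Another probe set of Pbx2 read 7.46 in hybridized cells and 6.21 in live cells, a difference of 1.25. Averaged over probe sets, Pbx2 differed by 0.48, with the sign turned.

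Lineage factors outside the named families were also mostly low. Of 36 such factors with a probe set of their own, 30 were under the limit, or 83.3%, against 41.4% of all genes. The 30 include Foxa2, Sox17, Sox1, Myod1, Pdx1 and Cdx2. The list was drawn up with earlier results known. Several of its genes, such as Foxa2, Sox17, Sox1 and Cdx2, also stand among the markers given above, so the counts are not separate. The 6 at the level were Tbx3, Eomes, En2, Olig2, Isl1 and Cdx1. Tbx3, a T-box factor that is also part of the naive pluripotency network, read 10.95 in hybridized cells and 11.79 in live cells. En2, a midbrain homeobox gene, was 1.08 higher in hybridized cells and the difference of Olig2, a factor of motor neuron progenitors, was -1.02, each on 1 probe set. Of 14 homeobox genes on a list drawn up for expression in pluripotent cells, such as Nanog, Hesx1 and Zeb1, 12 were at the level, a count that the choice of the list largely sets.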

How the data were processed

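The authors deposited 1 log2 value per probe set and array for 1 hybridized and 1 live sample; the log base was inferred from the range of 1.02 to 14.24. GCRMA and affy are named, per the submitters' processing notes, with no version. GCRMA adjusts probe intensities for background according to base composition, and the sources used here do not state the arrays it was run on. Of 22690 probe sets, 64 controls, 691 naming several genes and 1555 without a gene were left out, which left 20380 for 12393 genes. Symbols are those of the platform table, and all 94 member genes matched RefSeq (GRCm38.p6) by Entrez ID.

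Each gene was read at its brightest probe set by mean of both arrays, and the level was a mean of 5. Members, lists and limits were chosen with earlier results of these data known. Named genes were members at a mean of 4 or more, the highest member of each family, members whose probe sets or arrays fell on both sides of the limit, and Polycomb and TALE genes at the level. Other members named by value are examples, as are genes named for their paralog number or as neighbours. No model was fitted. Alternatives were other limits, averaged probe sets, probe sets without suffixes, centring, quantile normalization and other fold thresholds, and leaving out the non-coding transcripts was added after the data were seen. Python 3.11.15, numpy 2.4.6, pandas 2.3.3 and matplotlib 3.10.9 were used.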

Additional observations from a re-analysis of the deposited data

How the results depend on the processing

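The count of genes under the limit was 82 to 90 of 94 over limits of 4 and 6, averaged probe sets, quantile normalization and the limit applied to each array, 83 of 86 without suffixed probe sets and 86 of 91 without the non-coding transcripts. The count at least 2-fold higher was 2 as reported, 1 with averaged probe sets, 1 at a 4-fold threshold and 0 without suffixed probe sets. It was 3 when centred on the hybridization controls. The count 2-fold lower was 0, and 1 (Six5) at a limit of 4. The median difference of 0.42 turned to -0.20 at a limit of 4, over 12 genes. It was 0.76 at a limit of 6 and with the limit on each array, 0.17 without suffixed probe sets, 0.59 when centred on the median gene and 1.22 when centred on the hybridization controls. It rests on 5 genes or fewer in all but the first of these. No paired analysis was possible because each group holds 1 array. Signal near the floor of the arrays limits any statement on the 89 low genes.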
